A study of Rattus norvegicus with 12 samples.

Results

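Genes of integrins and focal adhesions were followed in the fracture hematoma of rats, the blood clot and early granulation tissue that fills a broken bone. The set held 35 genes, namely 21 integrin chains, 7 focal adhesion proteins, 4 small GTPases, 2 syndecans and Cd44. They were chosen by symbol, and each gene was represented by its brightest probe set (mean over the 12 arrays) among those annotated to that symbol alone. Such a probe set existed for 33 of the 35 genes, out of 14213 genes on the array. Itga2 and Itga4 had none under the annotation used, and no signal is given for them.

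The hematomas came from Sprague-Dawley rats at day 3 after a femoral osteotomy with a gap of 1.5 mm held by an external fixator. Young rats (12 weeks) and old rats (52 weeks) received either semi-rigid fixation (fixator 15 mm from the bone) or rigid fixation (7.5 mm), which gave the groups YSR, YR, OSR and OR. Each group had 3 Affymetrix arrays, and each array held RNA pooled from 3 animals, so that differences between single animals cannot be seen.

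Integrins are receptors made of an alpha and a beta chain that span the cell membrane. Outside the cell they bind matrix proteins or other cells, and inside they connect through talin, vinculin, paxillin and kinases to the actin cytoskeleton, which small GTPases remodel. Beta 2 integrins are restricted to leukocytes, whereas pairs of beta 1 or alpha v with other chains hold stromal cells, endothelium, platelets and osteoclasts to collagen, fibronectin, vitronectin and laminin. The study asked which genes depend on age and on the stability of fixation together.

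Signals are given on a log2 scale, on which a difference of 1 is a 2-fold difference, as mean ± SD (n = 3 arrays). The level of one probe set cannot be set against that of another. Means over the 12 arrays lay between 5.90 and 13.83, and 30 of the 33 genes lay at or above the median of all probe sets (7.16). Itga1, Itga8 and Itgb4 lay under it. The clot's own cells were represented, with a summed signal of 49310 to 102568 for 5 measured erythroid markers. In whole tissue, fewer cells of a type and less RNA per cell cannot be told apart. Degraded RNA raises the ratio between the 3' and 5' control probe sets of Gapdh. This ratio was 6.69 (log2) on YSR array 1 and 2.95 on OR array 1, between 1.02 and 1.59 on the YR arrays and between 0.33 and 0.49 on the remaining arrays. Values without the arrays of the first 2 ratios are therefore given beside the counts.

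The groups were compared in 7 ways, as the 4 pairs that differ in 1 factor, as age (old minus young, averaged over fixation), as fixation (rigid minus semi-rigid, averaged over age) and as their interaction (the difference YSR minus YR less the difference OSR minus OR). None of the 33 genes passed limma's test at an adjusted p under 0.05 in any of them. Over all probe sets the share that passed was 0.00322% (1 probe set) in each of YSR minus OSR and YR minus OR, 0.00644% (2) for age, and 0% in YSR minus YR, OSR minus OR, fixation and the interaction. The smallest adjusted p of a member was 0.207 for age (Itga11), 0.304 in YR minus OR (Itga11) and 0.638 for fixation (Itga5). All directions below are therefore values that did not pass, and counts at an unadjusted p under 0.05 only describe the set beside its background.

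At an unadjusted p under 0.05, the 33 genes gave 12 in YR minus OR against 8.34% of all probe sets, 7 for age against 8.59%, and 6 in OSR minus OR against 5.26%. They gave 3 in each of YSR minus YR (4.37% of all probe sets), YSR minus OSR (4.36%), fixation (5.73%) and the interaction (3.8%). As shares of the set these were 36.4%, 21.2% and 18.2%, and 9.09% for each of the last 4. Among the 9562 genes whose brightest probe set lay at or above the median, which resemble the members more closely in signal, the shares were 11.5% in YR minus OR, 12.9% for age and 6.61% in OSR minus OR. Without YSR array 1 and OR array 1 the counts were 10 in YR minus OR against 9.98% of all probe sets, 9 for age (9.11%), 2 in OSR minus OR (5.6%), 3 in YSR minus YR (5.94%), 1 in YSR minus OSR (3.67%), 4 for fixation (7.22%) and 0 for the interaction (4.35%). The adjusted test of limma without these arrays passed 27 probe sets in YSR minus YR, 3 for fixation, 1 for age and 0 in the other comparisons, with no member among them. The count in OSR minus OR was 1 without OR array 1 and 10 without OR array 3, and that in YR minus OR was 7 without OR array 2. Without YSR array 1 and OR array 1, the Gapdh ratios on the YR arrays (1.02 to 1.59) still exceeded those of the other groups. They were 0.43 and 0.46 on OR arrays 2 and 3, and 0.33 and 0.42 on YSR arrays 2 and 3. The part of RNA quality in the comparisons with YR was not tested.

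The methods' test, which takes the spread of each probe set alone (one-way within a pair, two-way for age, fixation and the interaction), was also read at the thresholds the methods set for pairs and here applied to all 7 comparisons, an unadjusted p under 0.05 and a fold above 2. By these Itga5 passed in YSR minus YR, where 1.68% of all probe sets did, Itga11 in YR minus OR (2.56%), and Itgb3 and Itga7 for age (2.07%). No member passed in OSR minus OR (1.5%), YSR minus OSR (1.52%), fixation (1.5%) or the interaction (2.26%). After Benjamini-Hochberg adjustment 0 members and 0 of all probe sets passed this test in each comparison.

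The 3 arrays of YR and of OR did not overlap in 9 of the 33 genes, against 13.8% of all probe sets. Itgb2, Itga7, Pxn, Sdc4 and Cd44 were higher on every YR array, and Itga11, Itgav, Itgb3 and Itgb4 were lower. YSR and YR did not overlap in 4 genes (9.38% of all probe sets), with Itgam, Itga5 and Itgb4 higher and Ilk lower in YSR. OSR and OR did not overlap in 3 (10.8%), with Itgb2 higher and Itga11 and Itga9 lower in OSR. YSR and OSR did not overlap in 4 (8.98%), with Itga7, Rac1 and Sdc4 higher and Itga11 lower in YSR. Only Sdc4 separated all 6 old from all 6 young arrays (0.399% of all probe sets did), and 0 members separated rigid from semi-rigid fixation (0.254%).

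**Figure D1:**
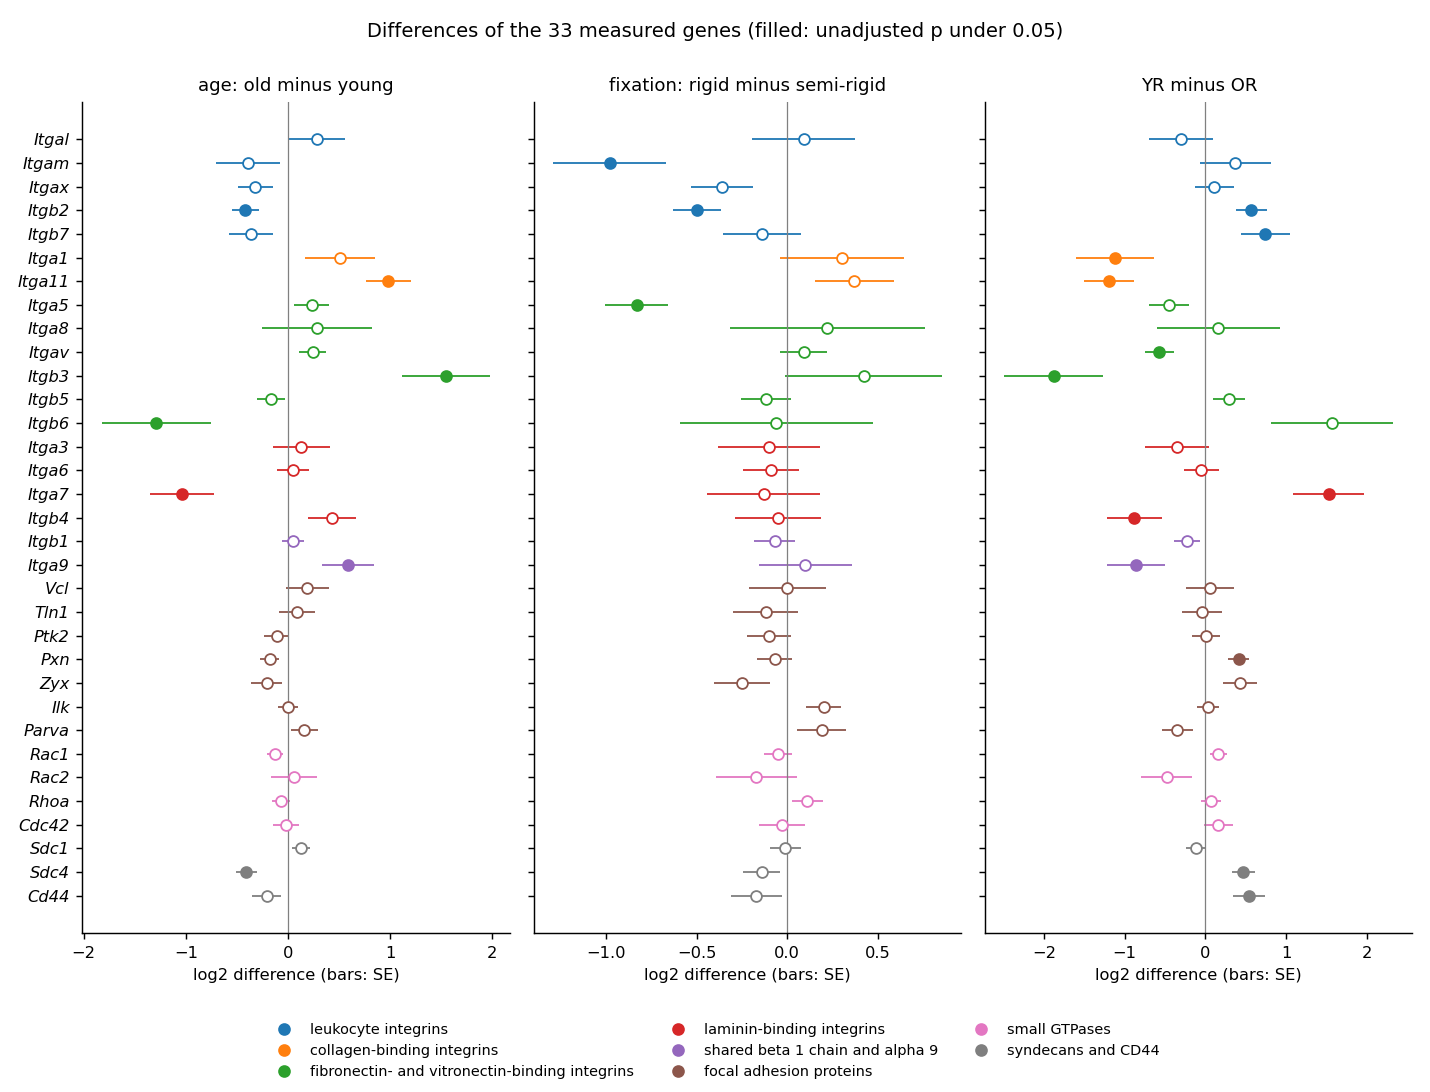
Log2 differences of the 33 measured genes (points, with standard errors as bars) for age, fixation and YR minus OR, coloured by class, with filled points for an unadjusted p under 0.05. Filled points are 7 for age, 3 for fixation and 12 in YR minus OR, and the focal adhesion proteins and GTPases lie between -0.48 and 0.43 in all 3 panels.

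The leukocyte integrins were lower under rigid than under semi-rigid fixation and lower in old than in young rats at 4 of the 5 chains measured (Itgam, Itgax, Itgb2 and Itgb7), with Itgal as the exception. Their median difference was -0.36 for fixation and -0.36 for age, beside medians of 0.00 and 0.02 over all probe sets. At an unadjusted p under 0.05 Itgam and Itgb2 were lower with rigid fixation, and Itgb2 alone was lower in old rats. In young rats 3 of the 5 chains were higher in YSR than in YR. Itgb7 had its highest mean in YR (YSR minus YR -0.24), and its difference for fixation was -0.14 (SE 0.21). The mean of the 5 chains on each array, relative to each gene's own mean, was 0.28 ± 0.21 (YSR), -0.04 ± 0.16 (YR), 0.09 ± 0.17 (OSR) and -0.34 ± 0.33 (OR).

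Itgb2 encodes CD18, the beta chain shared by the leukocyte integrins LFA-1, Mac-1 and p150,95, which neutrophils and macrophages need to leave the blood and to take up opsonised particles. Its signal was 12.77, 13.05 and 12.34 on the YSR arrays, 12.36, 12.50 and 12.22 on the YR arrays, 12.18, 12.49 and 12.64 on the OSR arrays and 12.02, 11.57 and 11.80 on the OR arrays. All 3 OR arrays were the dimmest of the series for this gene, and no OR array overlapped OSR or YR. OSR exceeded OR by 0.64 (SE 0.19, adjusted p = 0.88 from limma), or 1.56-fold. Averaged over age, rigid fixation was lower by a log2 difference of -0.50 (SE 0.13, adjusted p = 0.84 from limma), and this difference was -0.54 without YSR array 1 and OR array 1.

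Itgam encodes CD11b, the alpha chain of Mac-1, the receptor for fibrinogen, ICAM-1 and complement fragments on neutrophils and macrophages. Its signal was 10.18, 11.11 and 10 on the YSR arrays, 9.80, 9.41 and 9.07 on the YR arrays, 9.76, 9.80 and 10.51 on the OSR arrays and 7.90, 9.44 and 9.83 on the OR arrays. YSR and YR did not overlap, OSR and OR did, and the lowest value belonged to OR array 1, the array with the second-highest Gapdh ratio. YSR exceeded YR by 1.01 (SE 0.44, adjusted p = 0.991 from limma), or 2.01-fold, and by 0.67 without YSR array 2, and the difference for fixation was -0.98 (SE 0.31, adjusted p = 0.845 from limma). Without the arrays of highest Gapdh ratio OSR exceeded OR by 0.39 in place of 0.96, and the difference for fixation was -0.76.

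Itgax, which encodes CD11c of dendritic cells and macrophages, was 11.49, 11.85 and 10.84 on the YSR arrays, 11.06, 10.93 and 10.48 on the YR arrays, 10.56, 10.82 and 11.20 on the OSR arrays and 10.75, 10.81 and 10.58 on the OR arrays. YSR arrays 1 and 2 were the brightest, and YSR array 3 lay within the range of the other groups. The differences were 0.57 in YSR minus YR (adjusted p = 0.991 from limma) and 0.53 in YSR minus OSR (adjusted p = 0.959). They were 0.34 and 0.30 without YSR array 2, and YSR minus OSR was 0.81 without YSR array 3. Itgb7, the partner of alpha 4 and alpha E chains in lymphocyte homing, averaged 9.12 (YSR), 9.35 (YR), 9.13 (OSR) and 8.61 ± 0.72 (OR). Itgal, which encodes CD11a of LFA-1, averaged 10.63 (YSR), 10.70 (YR), 10.89 (OSR) and 11 (OR), so its order over the groups ran against that of Itgb2, but its SD of 0.31 to 0.72 within groups exceeded the difference for age of 0.28.

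Pan-leukocyte markers and most markers of monocytes and macrophages leaned in the same direction as most of these chains. All 6 pan-leukocyte markers were measured and none was at the floor of the scale, and their summed signal was 33039 to 37236 (YSR), 30149 to 36347 (YR), 27101 to 36066 (OSR) and 22835 to 32034 (OR). Their mean relative level was 0.21 (YSR), 0.03 (YR), -0.02 (OSR) and -0.23 (OR). Of 10 markers of monocytes and macrophages, 9 were measured, none was at the floor, and the summed signal was 72839 to 90511 (YSR), 76578 to 91140 (YR), 64472 to 84909 (OSR) and 58828 to 85476 (OR). For age 6 of the 9 leaned in the direction of Itgb2, with -0.55 for Cd14, -0.54 for Mrc1 and -0.36 for Cd68, and 3 the other way, with 0.35 for C1qa, 0.12 for C1qb and 0.13 for Lyz2. Of 10 neutrophil markers 6 were measured with none at the floor, and for age 4 of these leaned the other way. The median age difference of the 6 was 1.56, while Csf3r had -0.13 and Cxcr2 had -0.21. The summed signals of the 6 were 8857 to 16847 (YSR), 10717 to 49028 (YR), 22445 to 63579 (OSR) and 35152 to 86614 (OR). Markers of T and NK cells also leaned the other way. All 10 were measured, with 3 at or above the median signal, and all 10 were higher in old rats (median 0.51). With rigid fixation 9 of the 10 were higher (median 0.33). The 3 measured of 6 B cell markers were higher in old rats (median 0.29), with 0 at or above the median signal. The part of these cell types in the integrin values was not tested.

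**Figure D2:**
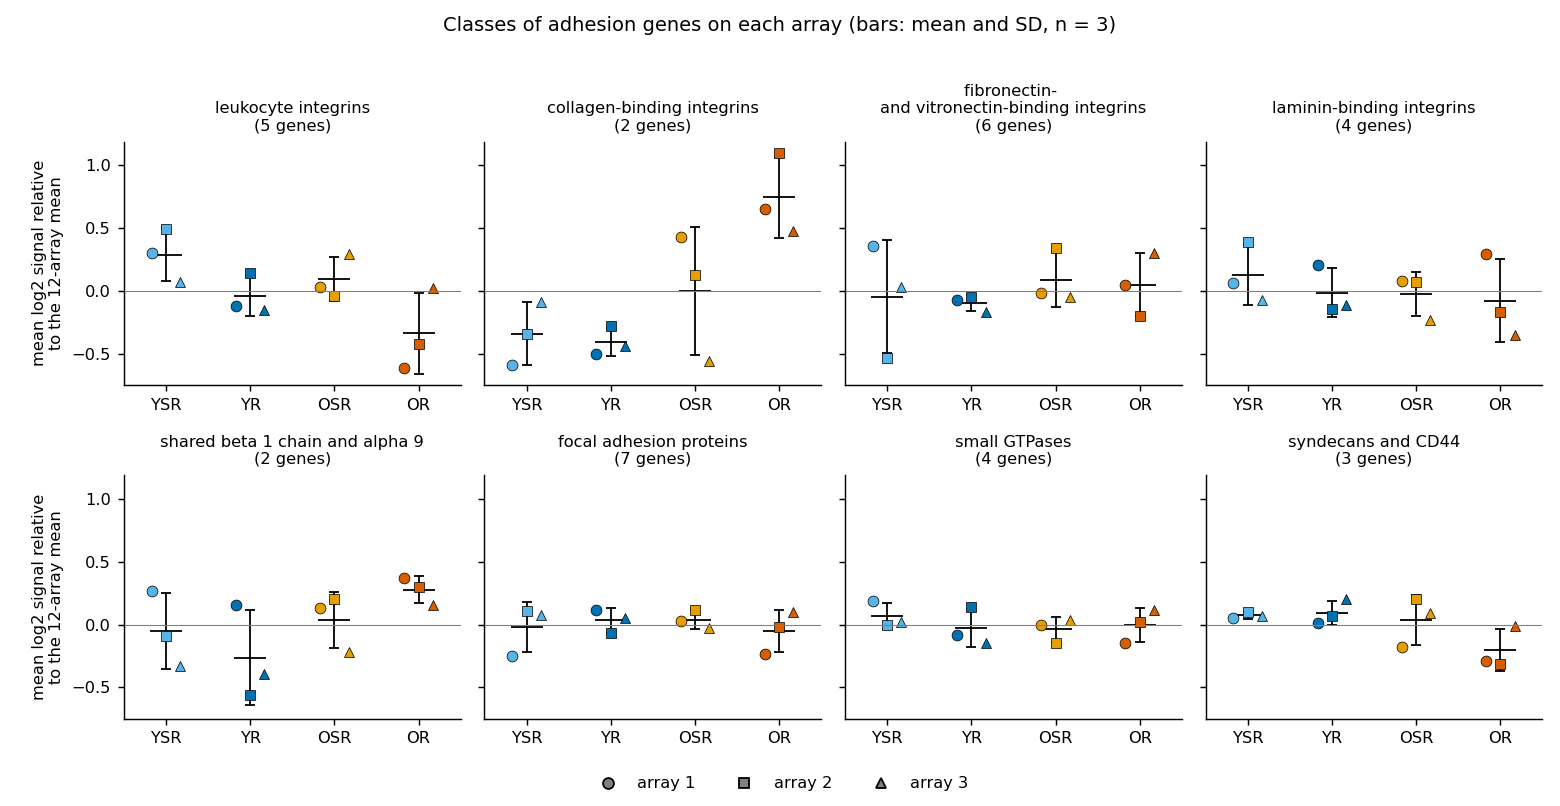
Mean log2 signal of each class of genes on each array, relative to each gene's mean over the 12 arrays, with the group mean and SD (n = 3). The leukocyte integrins average 0.28 in YSR and -0.34 in OR, the collagen-binding integrins -0.34 in YSR and 0.75 in OR, and the GTPases stay between -0.15 and 0.19 on every array.

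Itga5, the alpha chain of the classical fibronectin receptor, differed between the fixations with the smallest unadjusted p among the members. Its signal was 10.78, 10.42 and 10.37 on the YSR arrays, 9.51, 9.58 and 9.32 on the YR arrays, 10.41, 11.09 and 10.12 on the OSR arrays and 9.48, 10.04 and 10.25 on the OR arrays. Every YR array lay under every YSR and OSR array, whereas OR array 3 lay above OSR array 3. Rigid fixation was lower by a log2 difference of -0.83 (SE 0.17, adjusted p = 0.638 from limma), with YSR above YR by 1.05 (2.07-fold, adjusted p = 0.991) and OSR above OR by 0.61 (adjusted p = 0.901). Its difference for age was 0.23. Without the arrays of highest Gapdh ratio the difference for fixation was -0.66 and that of OSR minus OR was 0.39, and without OSR array 2 the latter was 0.34. The YR arrays also had Gapdh ratios above those of the 7 arrays with the lowest ratios, and the part of RNA quality in the YR values was not tested.

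For Itgam and Itga5, the members whose signal differed between the fixations by the widest margins, the 250 bases before the gene start are given from RefSeq (build GRCr8), with the purine-rich core letters GAGGAA recognised by PU.1, a transcription factor of myeloid cells, and its reverse complement TTCCTC in capitals.
Itgam, chr1:192089342-192089591, plus strand: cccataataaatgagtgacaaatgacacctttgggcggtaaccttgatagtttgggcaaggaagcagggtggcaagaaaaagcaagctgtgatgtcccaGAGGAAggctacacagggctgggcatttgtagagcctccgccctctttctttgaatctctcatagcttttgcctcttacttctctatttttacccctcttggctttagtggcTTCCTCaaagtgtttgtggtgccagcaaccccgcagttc
Itga5, chr7:136381306-136381555, minus strand: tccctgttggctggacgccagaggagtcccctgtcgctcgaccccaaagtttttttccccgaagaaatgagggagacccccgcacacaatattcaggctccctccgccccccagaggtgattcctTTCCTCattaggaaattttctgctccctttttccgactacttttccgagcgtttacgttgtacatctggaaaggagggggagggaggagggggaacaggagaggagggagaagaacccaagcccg
In this window Itgam held GAGGAA once, beginning 151 bases before the start, and TTCCTC once, beginning 39 bases before it. Itga5 held TTCCTC once, beginning 125 bases before the start. Of the 35 genes 25 matched the promoter table, Itga2 and Itga4 among them, and 7 of these (28%) held the letters on either strand in any window of the gene. Of all 33469 promoter windows of that length 23.3% held the letters, a share counted by window and not by gene. Of the 4 leukocyte integrins in the table (Itga4, Itgam, Itgax and Itgb7), Itgam was the one that held them. A match of letters is no evidence of binding.

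Of the other chains that bind fibronectin and vitronectin, Itgb3 had a higher signal in old rats. Itgb3 encodes the beta 3 chain, which pairs with alpha v on osteoclasts and endothelium and with alpha IIb on platelets. Its signal was 10.80, 9.69 and 11.35 on the YSR arrays, 9.94, 12.29 and 9.88 on the YR arrays, 12.77, 11.17 and 11.54 on the OSR arrays and 12.34, 12.97 and 12.45 on the OR arrays. OR was high on all 3 arrays, and YR array 2 stood more than 2 units above the other YR arrays. Old exceeded young rats by 1.55 (2.93-fold, SE 0.43, adjusted p = 0.296 from limma), and YR lay under OR by a difference of -1.88 (adjusted p = 0.408).

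**Figure D3:**
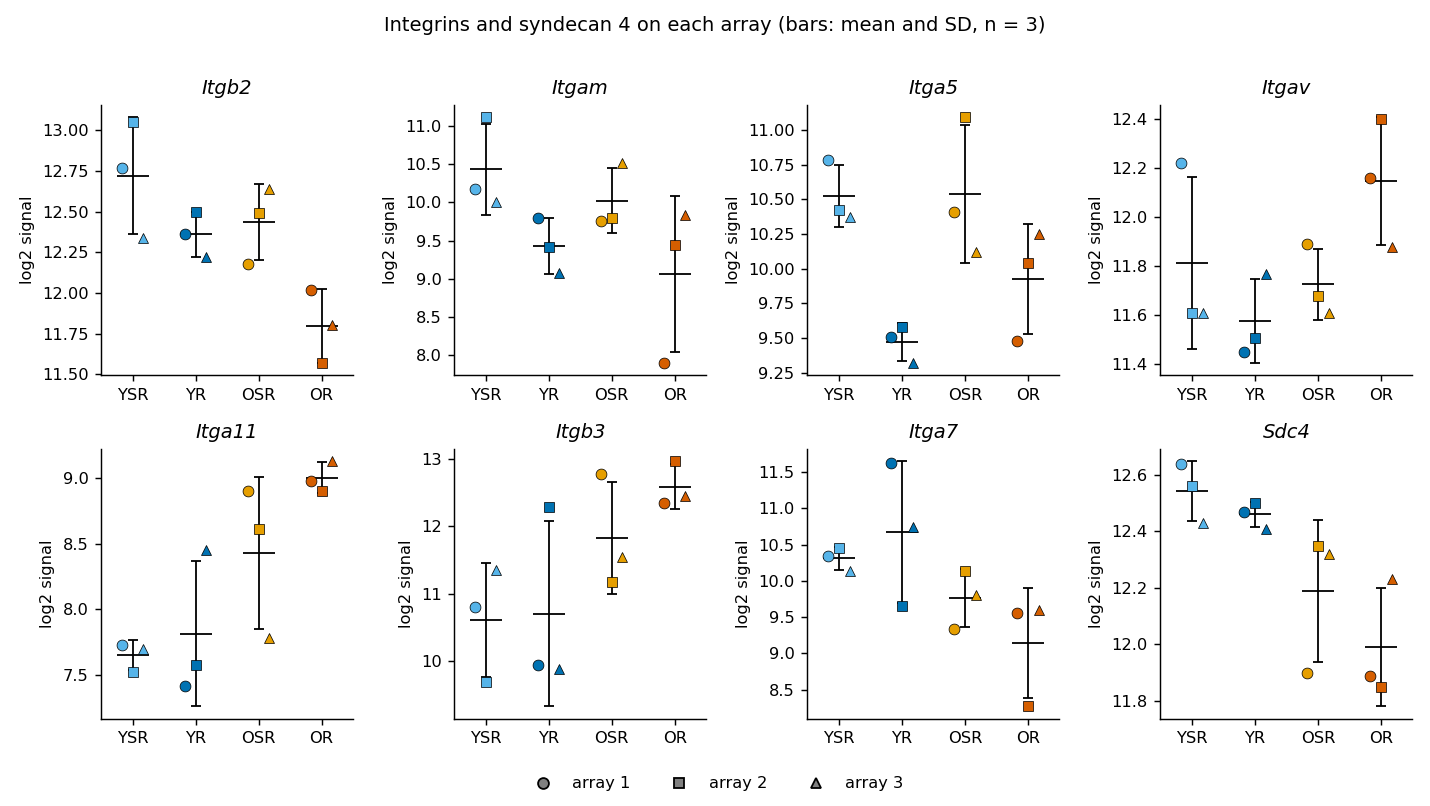
Log2 signal of 8 genes on each array by group, with the group mean and SD (n = 3). By group mean OR lies lowest for Itgb2 and highest for Itga11 and Itgb3, and YR lies lowest for Itga5. On single arrays OR and OSR overlap for Itgb3, and YR and OR overlap for Itga5. All 6 old arrays lie under all 6 young arrays for Sdc4.

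Markers of platelets and of osteoclasts had their higher mean levels in the old groups, as Itgb3 did, and so did several other lists. Neutrophil markers averaged -0.71 (YSR), -0.35 (YR), 0.37 (OSR) and 0.69 (OR), and T and NK cell markers -0.59, -0.10, 0.25 and 0.44. Smooth muscle and endothelial markers, given below, were also higher in both old groups. Pan-leukocyte, monocyte and macrophage, and skeletal muscle lists had lower means in both old groups. For platelets and megakaryocytes 7 of 10 markers were measured with none at the floor, and their mean relative level was -0.63 (YSR), -0.38 (YR), 0.46 (OSR) and 0.55 (OR). On YR array 2, the array that stood apart for Itgb3, this level was 1.06, against -1.10 and -1.09 on the other YR arrays. This array also stood apart for neutrophil markers (1.03, against -1.22 and -0.88) and B cell markers (1.38, against -0.26 and -0.58). The same held for T and NK cell markers (0.68, against -0.57 and -0.40) and erythroid markers (0.61, against -0.15 and -0.23). The osteoclast list was -0.63 there, against -1.01 and -0.73. The summed signal of the platelet markers was 15007 to 30957 (YSR), 18835 to 43392 (YR), 25389 to 40796 (OSR) and 30546 to 40718 (OR). Itga2b, the alpha IIb chain that pairs with beta 3 in platelets, averaged 9.33 (YSR), 9.60 (YR), 10.50 (OSR) and 10.70 (OR) (age difference 1.14, adjusted p = 0.584 from limma). For osteoclasts 5 of 9 markers were measured with none at the floor, the mean relative level was -0.38 (YSR), -0.79 (YR), 0.01 (OSR) and 1.16 (OR), and the summed signal was 7860 to 12597, 6551 to 7486, 10492 to 11822 and 15183 to 27686 in the same order. Of the 5 osteoclast markers 4 lay at or above the median signal, and for age 4 were higher in old rats and 1 was lower. The part of platelets, osteoclasts and the other cell types in the values of Itgb3 was not tested.

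**Figure D4:**
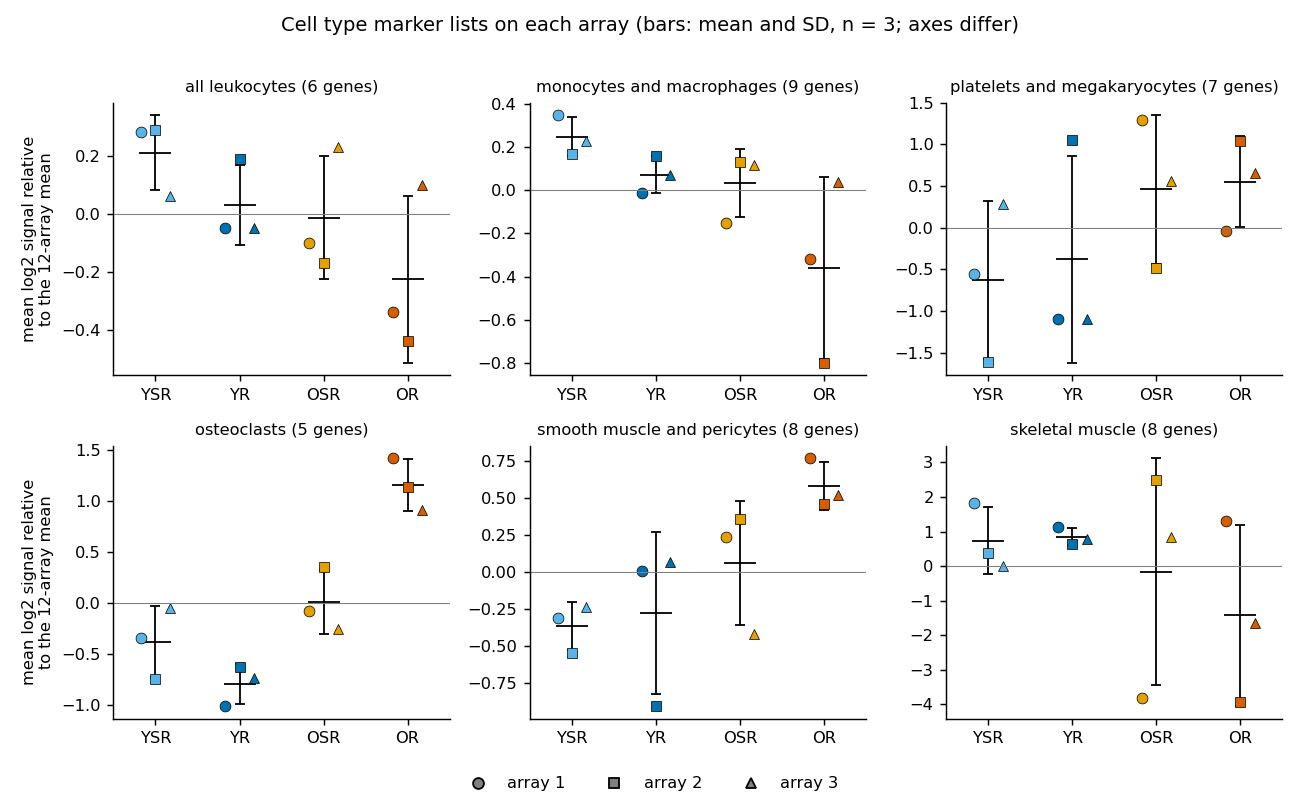
Mean log2 signal of 6 cell type marker lists on each array, relative to each gene's mean over the 12 arrays, with the group mean and SD (n = 3) and a separate y axis for each list. The osteoclast list averages 1.16 in OR and -0.79 in YR, and the skeletal muscle list ranges from -3.94 on OR array 2 to 2.5 on OSR array 2.

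Itgav, the alpha v chain of the vitronectin receptors, was 12.22, 11.61 and 11.61 on the YSR arrays, 11.45, 11.51 and 11.77 on the YR arrays, 11.89, 11.68 and 11.61 on the OSR arrays and 12.16, 12.40 and 11.88 on the OR arrays. OR lay above YR on every array, and YSR array 1, the array with the highest Gapdh ratio, matched the OR level. Semi-rigid exceeded rigid fixation by 0.24 in young rats and was lower by a difference of -0.42 in old rats, an interaction of 0.66 (SE 0.26, adjusted p = 0.99 from limma). The interaction of this probe set was 0.44 without the arrays of highest Gapdh ratio. The other 2 probe sets of Itgav gave interactions of 0.23 and 0.36. Itgb5, a further partner of alpha v, averaged between 9.56 and 9.85 in the 4 groups. Itgb6, a chain of epithelial cells, had a lower signal in old rats (-1.29, adjusted p = 0.52 from limma), but its SD reached 1.31 in YR and its mean of 7.20 lay just above the median of all probe sets. Itga8 lay under the median, with group means from 5.43 to 6.15. As a class the 6 chains had median differences of 0.24 for age and 0.02 for fixation, and relative means between -0.10 and 0.09 in the 4 groups.

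The collagen-binding integrins were higher in old rats and had their highest mean in OR. Only Itga1 and Itga11 of the 3 chains were measured, so that the class rests on a pair of genes, of which Itga1 lay under the median signal. Their mean relative level was -0.34 ± 0.25 (YSR), -0.41 ± 0.11 (YR), 0.00 ± 0.51 (OSR) and 0.75 ± 0.32 (OR). OSR array 3 (-0.56) lay with the young arrays, while OSR arrays 1 and 2 had 0.43 and 0.13.

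Itga11, the receptor chain by which fibroblasts hold fibrillar collagen, was 7.73, 7.52 and 7.70 on the YSR arrays, 7.42, 7.58 and 8.45 on the YR arrays, 8.90, 8.61 and 7.78 on the OSR arrays and 8.98, 8.90 and 9.13 on the OR arrays. All OR arrays lay above all arrays of the other groups, OSR array 1 by less than the rounding, and YR array 3 and OSR array 3 were the ones by which the old and young rats overlapped. Old exceeded young rats by 0.98 (1.98-fold, SE 0.22, adjusted p = 0.207 from limma). The adjusted p was 0.0495, with a difference of 1.15, when OSR array 3 was left out. YR lay under OR by a difference of -1.19 (SE 0.31, adjusted p = 0.304 from limma), and YSR under OSR by -0.78 (adjusted p = 0.959). Itga1, which binds collagen IV of basement membranes, averaged 6.52 (YSR), 6.22 (YR), 6.43 (OSR) and 7.34 ± 0.75 (OR) (YR minus OR -1.12, adjusted p = 0.571 from limma). Its interaction was 1.21 with an SE of 0.69, against 0.41 with an SE of 0.44 for Itga11.

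Several stromal and vascular marker lists also had their highest mean relative level in OR, a trait that most of the marker lists shared. OR was also highest for neutrophils (0.69), T and NK cells (0.44), B cells (0.33), erythroid cells (0.56), platelets and megakaryocytes (0.55) and osteoclasts (1.16). It was not highest for all leukocytes (-0.23), monocytes and macrophages (-0.36), skeletal muscle (-1.43) and epithelium (0.15). Of smooth muscle and pericyte markers 8 of 8 were measured, none was at the floor, the mean relative level was -0.37 (YSR), -0.28 (YR), 0.06 (OSR) and 0.58 (OR), and the summed signal was 8419 to 9735, 6680 to 15412, 8562 to 14708 and 9819 to 12722. Of endothelial markers 8 of 9 were measured with none at the floor, with -0.32, -0.23, -0.02 and 0.56 in the same order of groups and summed signals of 5333 to 6488, 5920 to 7118, 5460 to 10888 and 8224 to 15211. The 9 fibroblast markers differed less, at -0.01, -0.12, -0.02 and 0.15, with summed signals of 120075 to 130902, 97358 to 145305, 96733 to 157378 and 141149 to 172634. For age 7 of the 8 smooth muscle and pericyte markers were higher in old rats, with 1.08 for Tagln and 0.61 for Pdgfrb, while Des, the brightest of that list, had -0.97. All 8 endothelial markers were higher, from 0.05 for Tie1 to 1.14 for Vwf. Of the 9 fibroblast markers 7 were higher in old rats, with 0.48 for Col5a1, and 2 were lower, with -0.56 for Pdgfra and -0.36 for Dcn. The part of these cell types in the collagen receptor values was not tested.

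The 4 laminin-binding chains had no common direction for age, and for fixation all 4 had small differences of -0.05 to -0.13. Itga7, the alpha chain of the laminin receptor of skeletal muscle, was 10.35, 10.45 and 10.14 on the YSR arrays, 11.62, 9.66 and 10.74 on the YR arrays, 9.34, 10.14 and 9.81 on the OSR arrays and 9.56, 8.27 and 9.60 on the OR arrays. Every YR array lay above every OR array, by a group difference of 1.53 (2.89-fold, SE 0.44, adjusted p = 0.343 from limma), and the age difference was -1.04 (adjusted p = 0.337). A dimmer probe set of Itga7 with a mean of 8.99 gave -0.84 for age. Of 9 skeletal muscle markers 8 were measured with none at the floor, with mean relative levels from -3.94 to 1.3 on the OR arrays, -3.81 to 2.5 on the OSR arrays, -0.01 to 1.83 on the YSR arrays and 0.64 to 1.12 on the YR arrays. Their summed signal was 24309 to 62181 (YSR), 40974 to 68206 (YR), 1677 to 106158 (OSR) and 1530 to 59074 (OR), and the part of muscle in the Itga7 values was not tested.

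Itga6, a laminin receptor chain of endothelium, platelets and epithelium, was 11.08, 11.18 and 10.83 on the YSR arrays, 10.93, 11.30 and 10.58 on the YR arrays, 11.27, 10.61 and 11.34 on the OSR arrays and 11.16, 11.06 and 10.75 on the OR arrays. All groups overlapped, and the age difference was 0.05 with an SE of 0.16. Other probe sets of Itga6 read 5.70 and 6.69 on YSR array 1, against at least 8.47 and 7.75 on the other 11 arrays. Itgb4, the partner of alpha 6 in hemidesmosomes, had 6.60 ± 0.10 in YR and 7.48 ± 0.35 in OR (difference -0.88, adjusted p = 0.516 from limma) at a level under the median of all probe sets. Itga3 averaged between 7.82 and 8.17 in the 4 groups.

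Itgb1, the beta 1 chain that partners most matrix-binding alpha chains, was 13.76, 13.32 and 13.36 on the YSR arrays, 13.20, 13.08 and 13.40 on the YR arrays, 13.35, 13.47 and 13.22 on the OSR arrays and 13.66, 13.46 and 13.23 on the OR arrays. All pairs of groups overlapped, and the differences were 0.05 (SE 0.11) for age and -0.07 (SE 0.11) for fixation. Itga9, which binds tenascin C, osteopontin and VCAM-1, averaged 7.40 (YSR), 7.22 (YR), 7.72 (OSR) and 8.09 ± 0.03 (OR) (age 0.59, adjusted p = 0.547 from limma). A dimmer probe set of Itga9, with a mean of 5.17, gave -0.76.

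**Figure D5:**
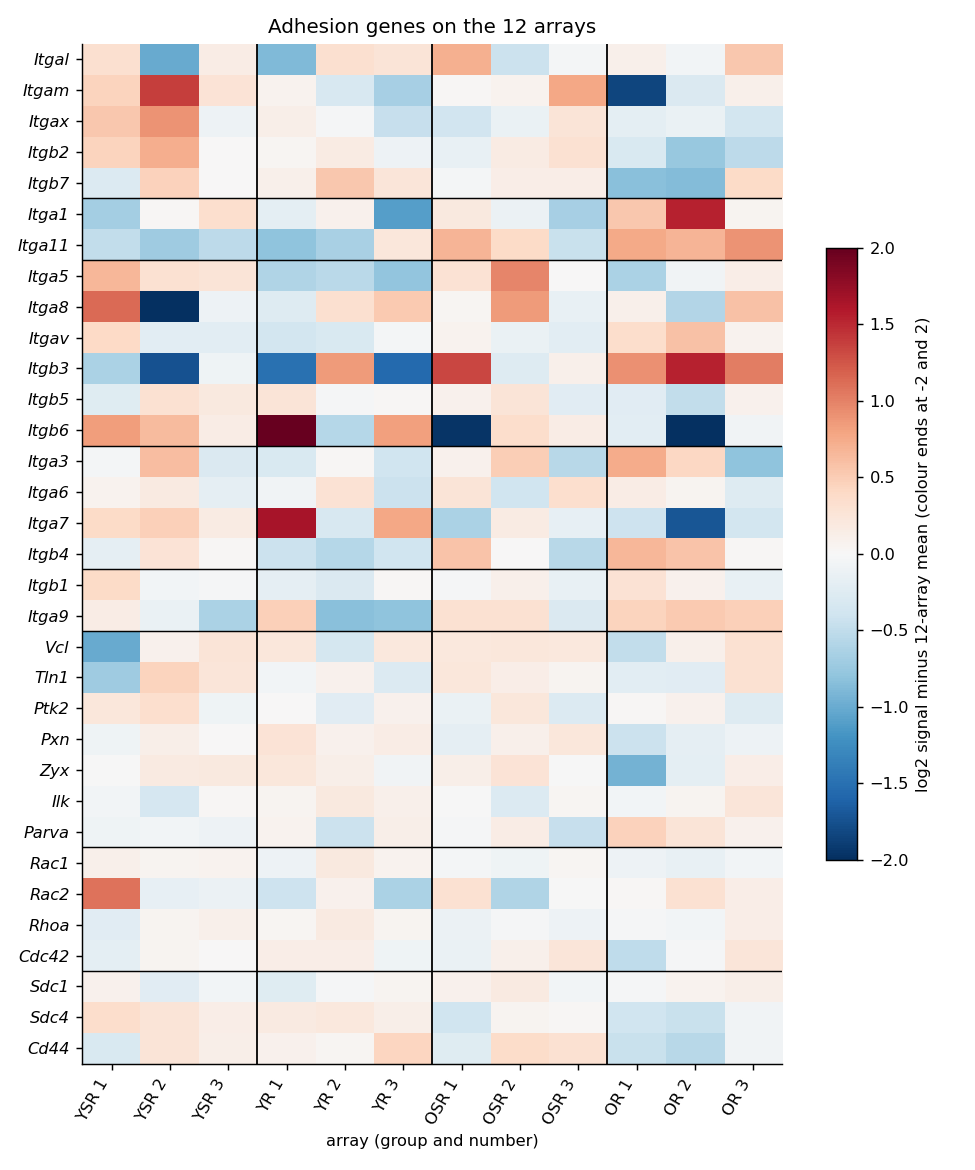
Log2 signal of the 33 measured genes on the 12 arrays, relative to each gene's mean over the arrays, with lines between groups and between classes and a colour scale that ends at -2 and 2. Values span 3.21, 1.71, 3.28 and 3.35 over the 12 arrays for Itgam, Itga11, Itgb3 and Itga7. The pale rows of Itgb1, Sdc1 and the GTPases Rac1 and Rhoa span 0.68, 0.41, 0.35 and 0.41. The widest spans are those of Itgb6 (4.19) and Itga8 (3.59), in which all pairs of groups overlapped, so strong colour alone does not mark a difference between groups.

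The 7 focal adhesion proteins differed little between groups, with median differences of 0.00 for age and -0.07 for fixation. Vcl, which encodes vinculin, the linker between talin and actin, was 11.04, 12.14 and 12.31 on the YSR arrays, 12.28, 11.69 and 12.26 on the YR arrays, 12.26, 12.27 and 12.25 on the OSR arrays and 11.56, 12.15 and 12.35 on the OR arrays. The lowest values belonged to YSR array 1 and OR array 1, the arrays of highest Gapdh ratio, and without them YSR minus YR was 0.15 in place of -0.25. A dim probe set of Vcl (mean 7.15) was also lowest on YSR array 1, at 5.46 against at least 6.45 on the other 11 arrays, whereas a brighter one (mean 11.63) read 11.75 there against at least 11.34 elsewhere. Pxn, which encodes the adaptor paxillin, was 10.80, 11 and 10.89 on the YSR arrays, 11.16, 10.98 and 11.04 on the YR arrays, 10.71, 10.99 and 11.12 on the OSR arrays and 10.46, 10.70 and 10.79 on the OR arrays. OR was under YR on every array (YR minus OR 0.41, adjusted p = 0.416 from limma), and the interaction was -0.45 (SE 0.19, adjusted p = 0.99). This interaction was -0.31 without the arrays of highest Gapdh ratio.

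Ilk, the integrin-linked kinase that forms a complex with parvins at the beta chain tail, was lower on every YSR than on every YR array, by a group difference of -0.23 (adjusted p = 0.991 from limma). Zyx, which encodes the stretch-sensitive adaptor zyxin, averaged 11.94 (YSR), 11.91 (YR), 11.94 (OSR) and 11.48 ± 0.55 (OR). Its lowest value, 10.88, was on OR array 1. Its OSR minus OR was 0.46, and 0.16 without the arrays of highest Gapdh ratio. Tln1, encoding talin, Ptk2, encoding focal adhesion kinase, and Parva, encoding alpha parvin, had age differences of 0.09, -0.11 and 0.16, none with an adjusted p under 0.772. The lowest Tln1 value, 10.50, was on YSR array 1, against at least 10.93 on the other 11 arrays. Without the arrays of highest Gapdh ratio its YSR minus YR was 0.42 (adjusted p = 0.811 from limma) in place of 0.07.

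Rhoa, the GTPase that drives actomyosin contraction, was 13.60, 13.89 and 13.93 on the YSR arrays, 13.87, 14.01 and 13.88 on the YR arrays, 13.71, 13.80 and 13.73 on the OSR arrays and 13.80, 13.78 and 13.97 on the OR arrays. All pairs of groups overlapped. Rac1, which drives lamellipodia, was higher on every YSR than on every OSR array by a group difference of 0.11 (adjusted p = 0.959 from limma). Cdc42, which directs cell polarity, had differences of -0.02 for age and -0.03 for fixation. Rac2, the form of blood cells that serves the neutrophil oxidase, averaged 12.57 ± 0.70 (YSR), 11.98 ± 0.36 (YR), 12.20 ± 0.46 (OSR) and 12.46 ± 0.14 (OR), an interaction of 0.85 (adjusted p = 0.99 from limma). Its highest value, 13.38, was on YSR array 1, and without the arrays of highest Gapdh ratio the interaction was 0.51 and YSR minus YR was 0.19 in place of 0.59. None of the 4 GTPases had an unadjusted p under 0.05 in any comparison.

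Sdc4, which encodes syndecan 4, the heparan sulfate proteoglycan that acts beside alpha 5 beta 1 on fibronectin, was 12.64, 12.56 and 12.43 on the YSR arrays, 12.47, 12.50 and 12.41 on the YR arrays, 11.90, 12.35 and 12.32 on the OSR arrays and 11.89, 11.85 and 12.23 on the OR arrays. All 6 young arrays lay above all 6 old arrays, with OSR array 2 (12.35) closest to the young. The age difference was -0.41 (1.33-fold, SE 0.10, adjusted p = 0.231 from limma), and it was -0.36 without YSR array 1 and OR array 1. Sdc1, the syndecan of epithelium and plasma cells, averaged between 11.73 and 11.87 in the 4 groups.

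Cd44, which encodes a hyaluronan and osteopontin receptor of leukocytes and stromal cells, was 11.91, 12.47 and 12.32 on the YSR arrays, 12.30, 12.24 and 12.64 on the YR arrays, 11.97, 12.57 and 12.51 on the OSR arrays and 11.76, 11.66 and 12.14 on the OR arrays. OR was under YR on every array and overlapped OSR. OSR exceeded OR by 0.50 (adjusted p = 0.901 from limma), YSR minus YR was -0.16, and the interaction was -0.65 (SE 0.28, adjusted p = 0.99). A second probe set of Cd44 gave an interaction of -0.63 and correlated with the first at r = 0.95 over the 12 arrays. The interaction of the first was -0.45 without the arrays of highest Gapdh ratio.

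Ligands and further adhesion genes were read from 3 lists, in which none of the measured genes passed the adjusted test in any comparison. Of 20 matrix and cell surface ligands 19 were measured, and at an unadjusted p under 0.05 for age 3 were higher and 1 was lower in old rats, beside 4.7% higher and 3.89% lower of all probe sets. Vcam1, the endothelial ligand of alpha 4 and alpha 9 integrins, averaged 9.46 (YSR), 9.64 (YR), 10.17 (OSR) and 10.79 (OR) (age 0.93, adjusted p = 0.212 from limma). Col4a1, a chain of basement membrane collagen that alpha 1 beta 1 binds, had an age difference of 0.74 (adjusted p = 0.257) and an interaction of 0.82 (adjusted p = 0.99). Icam1, the ligand of the beta 2 integrins, had 10.39 (YSR), 10.10 (YR), 10.08 (OSR) and 10.40 (OR), an interaction of 0.60 (adjusted p = 0.99 from limma). Col3a1, a fibrillar collagen chain, differed by 0.20 between the fixations (adjusted p = 0.868 from limma).

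Of 34 further adaptors and kinases 32 were measured, with 5 higher and 2 lower in old rats and 3 higher and 2 lower with rigid fixation at an unadjusted p under 0.05. Of all probe sets 4.7% were higher and 3.89% lower for age, and 2.53% higher and 3.2% lower for fixation. Sdc2, a syndecan of mesenchymal cells, had an age difference of 0.54 (adjusted p = 0.363 from limma) and an interaction of 0.81 (adjusted p = 0.99). Actn1, which encodes the actin crosslinker alpha-actinin 1, had an age difference of 0.36 (adjusted p = 0.371). Crk, an adaptor downstream of paxillin, and Rock2, a kinase that RhoA activates, differed between the fixations by 0.24 and 0.27 (limma, adjusted p = 0.845 for both). Parvg, the parvin of blood cells, had an interaction of -0.73 (adjusted p = 0.99). Of 5 other integrin chains 3 were measured with 0 at an unadjusted p under 0.05. Itgae, the alpha E partner of beta 7, had 0.22 for age, -0.17 for fixation and 0.23 for the interaction.

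Genes outside the set were ranked by their likeness to the mean of the leukocyte integrins and of the collagen-binding integrins over the 12 arrays, among 9532 genes at or above the median signal. The nearest to the leukocyte integrins were Lrp1, an endocytic receptor (Pearson r = 0.954, Spearman correlation 0.902), Cln3, a lysosomal membrane protein (0.947 and 0.916), and Iqgap1, a scaffold of the actin cytoskeleton (0.926 and 0.930). The nearest to the collagen-binding integrins were Sphk1, which makes sphingosine 1-phosphate (0.954 and 0.881), Stambpl1, a deubiquitinase (0.948 and 0.895), and Sox4, a transcription factor (0.947 and 0.769). These are descriptions over 12 arrays that share 4 groups and pooled tissue.

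Probe sets of a gene did not always go together. Of the 33 genes 15 had several single-symbol probe sets, and in 12 of them at least 2 lay at or above the median signal. In these 12 genes all such probe sets had the same sign in 9 genes for age, in 6 for fixation and in 10 for the interaction. None of Itgb2, Itgam, Itga5, Itga11, Itgb3 and Sdc4 had a second single-symbol probe set against which its differences could be checked.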

How the data were processed

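RNA from fracture hematoma of 12 pools of 3 rats each (4 groups of 3 arrays) was hybridised to Affymetrix rat arrays in a single colour. The deposited file gives signal intensity (linear, 0.1 to 99658.6) for 31099 probe sets, and every array had the same trimmed mean (500.2). The median signal per array was 126.9 to 167.5. The labels name GCOS 1.2, whereas the study's methods describe PLIER summaries, which were not used here. Depth does not apply to arrays, and 3 arrays per group limit the precision.

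Values below 1 were set to 1 before log2 was taken. The 57 controls were dropped, and the remaining 31042 probe sets were fitted with limma 3.58.1 (lmFit, eBayes with an intensity trend, R 4.3.3) over all 12 arrays, with Benjamini-Hochberg adjustment over all of them. The pairs subtract the group named second. Symbols came from the platform annotation (20826 probe sets with 1 symbol, 436 with several, 9780 with none). The scripts were tested on simulated data. Python 3.11.15, pandas 2.3.3, numpy 2.4.6, scipy 1.17.1 and matplotlib 3.10.9 made the summaries and plots.

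The genes, classes and lists were chosen with earlier results of these data known. Every array is given for the brightest gene of each class, the 3 genes of smallest unadjusted p in each comparison, and Itgam, Itga11 and Itgb3. Of each pathway list the 2 genes of smallest unadjusted p for age, fixation and the interaction are named among those at or above the median, with Itga2b. From each marker list up to 3 genes in each direction are named. Marker lists for T and NK cells, B cells, erythroid cells and epithelium were also read, with median age differences of 0.51, 0.29, 0.61 and 0.21.

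Alternatives were quantile normalization, a pseudocount of 16, no dim probe sets, the mean of all probe sets of a gene, a fit with no intensity trend, a fit of each pair on its own, the methods' test, the replicate block, leaving out each array, and leaving out the arrays with a Gapdh ratio above 2. Replicate numbers gave no pairing: residuals of same-numbered arrays had a median correlation of 0.0193 over 18 pairs, against 0.0196 over 36 other pairs.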

Additional observations from a re-analysis of the deposited data

How the results depend on the processing

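No member passed the adjusted test under any alternative, except that Itga11 passed for age without OSR replicate 3 (difference 1.15, adjusted p = 0.0495), so that the number of members at an adjusted p under 0.05 for age ranged from 0 to 1 when single arrays were left out. Its adjusted p was 0.313 with the replicate block. The other 431 values under the alternatives of the 3 members of smallest unadjusted p in each comparison kept their direction and their side of the threshold. Over all 33 members and 7 comparisons, 30 of 231 differences turned sign without the arrays of high Gapdh ratio, 6 of them with a size of at least 0.1 in both fits, namely Vcl in YSR minus YR (-0.25 to 0.15) and the interaction (-0.49 to 0.14), Tln1 in YSR minus OSR (-0.15 to 0.20) and the interaction (-0.11 to 0.32), Itga3 in OSR minus OR (-0.11 to 0.20) and Itgam in YR minus OR (0.37 to -0.21). None of the 30 had an unadjusted p under 0.05 in either fit. The replicate block, for which the numbers gave no pairing, moved the counts at an unadjusted p under 0.05 from 6 to 5 in OSR minus OR and from 3 to 4 for fixation, and left the other 5 counts as they were. The collagen-binding mean had an interaction of 0.81 and of 0.41 without dim probe sets, which left out Itga1.

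Counts of members at an unadjusted p under 0.05 depended on the setting, and the cause was not tested. Without the intensity trend they were 1 in OSR minus OR, 1 in YSR minus OSR, 1 in YSR minus YR and 0 for the interaction. With the methods' test they were 1 in OSR minus OR, 7 in YR minus OR, 0 in YSR minus OSR and 1 for the interaction. With only the arrays of the pair OSR minus OR gave 3, and with the mean of all probe sets of a gene the interaction gave 1. Without the arrays of high Gapdh ratio the counts were 2 in OSR minus OR, 1 in YSR minus OSR and 0 for the interaction.

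Leaving out single arrays moved the counts from 1 (without OR replicate 1) to 10 (without OR replicate 3) in OSR minus OR, which gave 2 without OSR replicate 2 or 3 and 3 without OR replicate 2. They ranged from 7 (without OR replicate 2) to 14 in YR minus OR, and from 0 (without YSR replicate 2 or OSR replicate 1) to 5 (without YSR replicate 3) in YSR minus OSR, with 1 without YSR replicate 1. In YSR minus YR they ranged from 1 (without YR replicate 3) to 5 (without YSR replicate 3), for age from 5 to 10, and for fixation from 3 to 6 (without OSR replicate 1), with 5 without YSR replicate 3 or OR replicate 3. For the interaction they ranged from 0 (without YSR replicate 1 or OSR replicate 3) to 7 (without OR replicate 3), with 1 without OR replicate 1 or 2 and 5 without OSR replicate 1 or YR replicate 2.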
